A study of Mus musculus with 6 samples.

Results

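The carboxylesterases described here were the 9 mouse genes Ces2e, Ces2f, Ces2g, Ces2a, Ces2b, Ces2c, Ces1d, Ces1f and Ces1g, chosen by symbol from a table of 16894 genes measured in control and senescent fibroadipogenic progenitors (FAPs). The set was drawn up around Ces2e because of its difference between these same libraries. The values of the members in the 2 groups are therefore given as a description, with no test. Of the 9 members, 3 were listed in the table, namely Ces2e, Ces2g and Ces1g. The other 6, Ces2f, Ces2a, Ces2b, Ces2c, Ces1d and Ces1f, had no line in it.

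Carboxylesterases are serine hydrolases of the endoplasmic reticulum that cut ester, thioester and amide bonds in drugs, toxins and lipids. In the mouse the genes have multiplied in tandem, with the Ces1 and Ces2 genes in separate clusters on chromosome 8. Ces1 and Ces2 enzymes are best known from liver and intestine, where they take part in first-pass drug metabolism and in triglyceride turnover.

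FAPs, the mesenchymal progenitors of skeletal muscle, give rise to fibroblasts and adipocytes. The study isolated them from muscle of young male and female C57BL/6 mice (3 to 6 months of age) by sorting CD45-, CD31-, α7-integrin- and SCA-1+ cells and grew them in culture. The 3 control cultures were non-senescent FAPs. Whether they received vehicle, or spent the same time in culture as the treated ones, is not given in the sources used here. The 3 senescent cultures had received 20 μM etoposide, a topoisomerase poison that breaks DNA, for 48 h and were then kept for 5 days without the drug. Neither the labels nor the methods say whether the replicates came from separate animals, so p-values measure only the spread between these cultures.

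Levels are given in CPM, the reads of a gene relative to the edgeR-scaled size of its library. Genes received 41412179 to 59912520 reads per library, and 1 read was worth 0.0167 to 0.0225 CPM. Of the 14776 genes that reached 0.5 CPM in at least 3 libraries, 21.8% were called higher and 24.3% lower in senescent FAPs (limma, cultures not paired, Benjamini-Hochberg adjusted p under 0.05). Dividing by library totals alone, without edgeR's scaling, turned these 3218 higher and 3592 lower calls into 5056 and 1933 and moved the median log2 fold change of all genes from -0.03 to 0.17. All 6 of the FAP markers (Pdgfra, Ly6a, Dcn, Gsn, Col1a1 and Cd34) were listed, with a summed level of 11300 to 22600 CPM in control and 5030 to 6760 CPM in senescent libraries, most of it from Col1a1. Col1a1 was called lower, whereas 4 of the 6 (Ly6a, Dcn, Gsn and Cd34) were called higher and Pdgfra was not called. None of the 6 hepatocyte markers (Alb, Apoa1, Ttr, Tat, Fgb and Serpina1a) was listed, and 2 of 6 enterocyte markers (Vil1 and Cdh17) were, at 4.46 to 6.87 CPM in control and 7.37 to 9.07 CPM in senescent libraries. Of the adipocyte markers 1 of 7 was listed, Fabp4, at 2.73 to 3.69 and 5.06 to 5.81 CPM. Leukocyte and macrophage markers (4 of 6 listed, without Ptprc and Adgre1) summed to 10.9 to 13.8 CPM in control and 25.9 to 32.0 CPM in senescent libraries, endothelial markers (5 of 6) to 19.2 to 39.5 and 23.8 to 31.2 CPM, and myogenic markers (2 of 6, without Pax7, Myod1, Myf5 and Myog) to 14.3 to 19.3 and 23.4 to 30.2 CPM. The adipocyte, enterocyte, leukocyte and myogenic sums were higher in all senescent than in all control libraries, as the members described below were, and their part in those values was not tested. In bulk RNA, a change in the number of cells that express a gene and a change in RNA per cell cannot be told apart.

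The 250 bases before the start of Ces2e and of Ces2g, the most abundant listed members, are shown because they have a run of letters in common close to the start. They lie at chr8:104926010-104926259 and chr8:104961468-104961717, both on the plus strand (RefSeq, GRCm38.p6), and capitals mark the shared run of 13 bases.
Ces2e: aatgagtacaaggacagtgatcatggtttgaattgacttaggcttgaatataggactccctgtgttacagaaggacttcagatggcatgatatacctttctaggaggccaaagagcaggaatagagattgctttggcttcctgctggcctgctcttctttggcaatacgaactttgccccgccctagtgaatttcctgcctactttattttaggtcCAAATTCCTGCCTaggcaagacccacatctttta
Ces2g: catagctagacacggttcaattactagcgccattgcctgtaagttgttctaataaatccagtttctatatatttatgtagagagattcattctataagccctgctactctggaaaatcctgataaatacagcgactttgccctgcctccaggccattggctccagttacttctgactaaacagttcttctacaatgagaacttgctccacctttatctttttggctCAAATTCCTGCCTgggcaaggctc
The run CAAATTCCTGCCT began 34 bases before the start of Ces2e and 24 bases before that of Ces2g. On either strand it was held by windows of 3 of 27025 genes (0.0111%), and of the 15 carboxylesterases with a window only Ces2e and Ces2g had it. The run was picked because these 2 windows share it, and no other pair was searched for runs. Its rarity is therefore no test of a likeness particular to them. Aligned over their whole length, the windows were identical at 52.8% of 250 bases. This likeness was not particular to the 2 listed genes. The Ces2e window was identical at 58.8% with that of Ces2a, 54.0% with Ces2c and 53.6% with Ces2f, none of them listed. For the Ces2g window these values were 53.6%, 58.8% and 44.4%. The GC contents were 44.4% for the Ces2e window and 42.0% for the Ces2g window, against a median of 52.0% over all genes, and these 2 windows held 2 and 3 CG dinucleotides.

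Short motifs were searched on both strands of the same 250 bases. GGGCGG, the core of an Sp1 box, lay 72 bases before the start of Ces2e and was found in no other carboxylesterase window, while 35.4% of all genes had it in a window. CCAAT was found for Ces2g, Ces1g and 8 other carboxylesterases, and for 37.5% of all genes. TATAAA was found for Ces1g, Ces1h and Ces3b, and for 14.3% of all genes. A p53 half-site lay 53 bases before the start of Ces2g and was also found for Ces2c, Ces3b and Ces4a, against 8.2% of all genes. TGANNNNGC, the core of the antioxidant response element, was found for Ces1g, Ces1a, Ces2a and Ces2h (38.7% of all genes). AGGTCA, a nuclear receptor half-site, was found for Ces2a, Ces2h and Ces4a (15.8%), and TGANTCA, the AP-1 motif, for none (7.82%). These are matches of letters in 1 window and not measured binding.

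Ces2e (chr8:104926260-104934672, plus strand, GRCm38) was almost silent in control FAPs, with 0.112, 0.133 and 0.0180 CPM in replicates 1, 2 and 3, which came from 5, 7 and 1 reads. In senescent FAPs it stood at 5.42, 5.24 and 5.04 CPM, from 273, 313 and 224 reads. Every senescent culture lay far above every control culture, and the highest senescent value was 1.08 times the lowest. The means were 0.0875 ± 0.0612 CPM in control and 5.23 ± 0.190 CPM in senescent FAPs (SD, n = 3 each). On the log2(CPM + 0.5) scale the difference was 3.29 (SE 0.15), and the 0.5 added to each value reduces it. Pooled over libraries and allowing for their scaled sizes, the reads were 61.7 times as frequent in senescent FAPs (exact 95% interval 35.9 to 116, counting error only).

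Ces2g (chr8:104961718-104969537, plus strand) was the most abundant member in both groups. Control replicates 1, 2 and 3 held 1.23, 0.723 and 0.395 CPM (55, 38 and 22 reads), and senescent replicates held 15.7, 12.4 and 13.4 CPM (791, 744 and 595 reads). The groups did not overlap, and the control cultures differed more among themselves, relative to their level, than the senescent ones. The means were 0.782 ± 0.419 and 13.8 ± 1.68 CPM (SD, n = 3 each), a difference of 3.53 on the log2(CPM + 0.5) scale (SE 0.24). Pooled reads were 18.4 times as frequent in senescent FAPs (exact 95% interval 15.2 to 22.3, counting error only). By this log2 difference Ces2g had the 16th largest rise and Ces2e the 23rd largest of the 14776 genes, whereas by the ratio of pooled reads Ces2e exceeded Ces2g, because a ratio without an added constant weighs its near-zero control level more.

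Ces1g (chr8:93302369-93337308, minus strand), a liver enzyme of lipid metabolism, was the only listed Ces1 gene among the members. Control libraries held 0, 0.0951 and 0.0180 CPM (0, 5 and 1 reads), and the 0 of replicate 1 allows up to 0.067 CPM. Senescent libraries held 0.516, 0.636 and 0.855 CPM (26, 38 and 38 reads). These groups did not overlap either, although the senescent level stayed below 1 CPM in every culture. The means were 0.0377 ± 0.0505 and 0.669 ± 0.172 CPM (SD, n = 3 each), with a log2(CPM + 0.5) difference of 1.11 (SE 0.17), the 869th largest rise. Pooled reads were 16.8 times as frequent in senescent FAPs (exact 95% interval 7.48 to 47.0, counting error only).

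**Figure D1:**
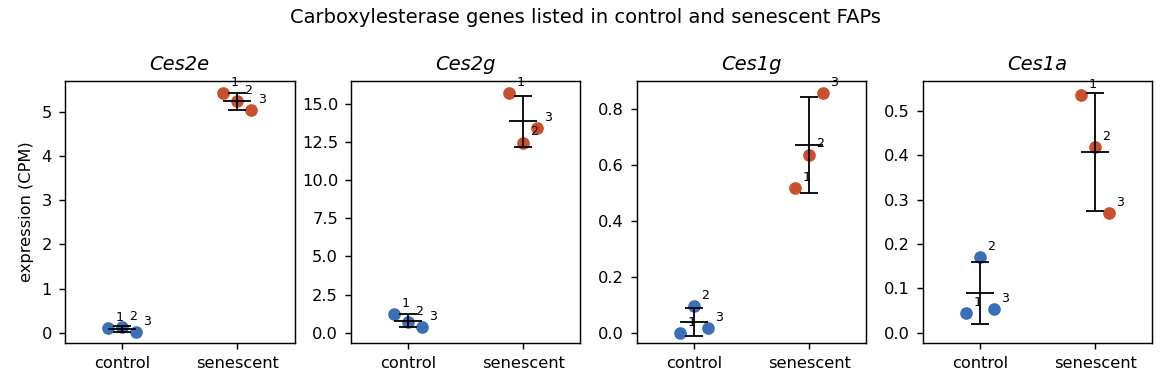
Level of each listed carboxylesterase in the 3 control and the 3 senescent cultures, in CPM on a linear axis of its own for each gene. Points are cultures with their replicate numbers, and bars give the mean and SD. Ces2e, Ces2g, Ces1g and Ces1a lie higher in every senescent culture than in any control culture, with senescent means of 5.23, 13.8, 0.669 and 0.408 CPM.

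All 3 listed members had every senescent library above every control library, as 26.5% of the tested genes did (30.9% had every senescent library below every control library). None would have passed the limit of 0.5 CPM in 3 libraries on its control values, which reached 0.5 CPM in control replicates 1 and 2 for Ces2g and in no control library for Ces2e and Ces1g, so passing favoured genes high in the senescent group. Of the 11 other mouse carboxylesterases, 1 was listed, Ces1a (chr8:93020214-93048192, minus strand), which did not reach that limit and was not fitted. It held 0.0446, 0.171 and 0.0539 CPM in control (2, 9 and 3 reads) and 0.536, 0.418 and 0.270 CPM in senescent libraries (27, 25 and 12 reads), again without overlap between the groups. Ces1a overlaps the predicted gene Gm45463 on the opposite strand, and whether counting used strand is not given in the sources used here. No annotated gene overlaps Ces2e, Ces2g or Ces1g.

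Per kilobase of exon, the scale on which genes can be compared, senescent levels followed the order Ces2g, Ces2e and Ces1g, at 3.87, 1.94 and 0.280 CPM per kb. The control levels were 0.219, 0.0324 and 0.0158 CPM per kb in the same order. Ces2g and Ces2e, and Ces2e and Ces1g, did not overlap between libraries in the senescent group. In control libraries Ces2e and Ces1g held between 0 and 7 reads each, too few to order them.

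The coding sequences of Ces2e and Ces2g were identical at 82.9% of aligned bases, those of Ces1g and Ces1a at 76.8%, and Ces2e and Ces1g at 60.8%. Of all runs of 50 bases in the transcripts (GENCODE M21), 3.36% for Ces2e, 3.95% for Ces2g and 1.67% for Ces1g also occurred in another gene. Reads falling there could be assigned to either gene or dropped, depending on the counting, which is not given in the sources used here.

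The balance between the 2 Ces2 genes differed between the groups. Ces2e made up 8.33%, 15.6% and 4.35% of the reads of Ces2e and Ces2g together in control replicates 1, 2 and 3. In senescent replicates it made up 25.7%, 29.6% and 27.4%. The shares did not overlap, with means of 9.41% ± 5.68 in control and 27.5% ± 1.98 in senescent FAPs (SD, n = 3 each), but the control shares rest on few reads. The exact 95% binomial intervals were 2.76% to 18.4%, 6.49% to 29.5% and 0.11% to 22.0% in control and 23.1% to 28.4%, 26.9% to 32.5% and 24.3% to 30.5% in senescent replicates. The interval of control replicate 2 overlapped all 3 senescent intervals. A share within a library does not depend on how the libraries are scaled.

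**Figure D2:**
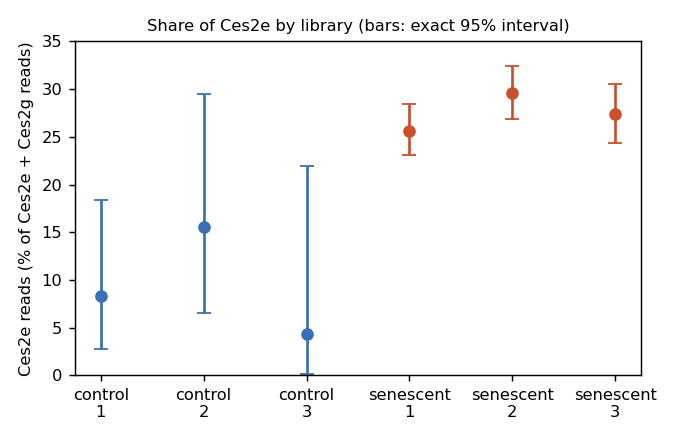
Share of Ces2e in the reads of Ces2e and Ces2g together, in percent, for each culture, with exact 95% binomial intervals that cover counting error only. The control shares (4.35% to 15.6%) lie below the senescent shares (25.7% to 29.6%), and the control intervals are wide.

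Summed over the 3 listed members, the level was 1.34, 0.951 and 0.431 CPM in control and 21.6, 18.3 and 19.3 CPM in senescent libraries. Ces1g contributed 0% and 4.17% of the members' reads in control replicates 1 and 3, 5 of 50 reads in control replicate 2, and 2.39%, 3.47% and 4.43% in senescent libraries. Its share overlapped between the groups.

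The 6 members without a line include close relatives of those that had one. Ces2f lies between Ces2e and Ces2g on the same strand, with starts 21.1 kb (Ces2f) and 35.5 kb (Ces2g) beyond that of Ces2e, and was not listed. Ces2a, Ces2b and Ces2c, from the same cluster, were not listed either, and nor were Ces1d and Ces1f, triglyceride hydrolases of the Ces1 cluster. Every listed gene reached 8 reads in 3 or more libraries, so a gene can be missing because it fell below such a limit or because its symbol was not in the annotation used for counting, and the 2 cannot be told apart here.

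**Figure D3:**
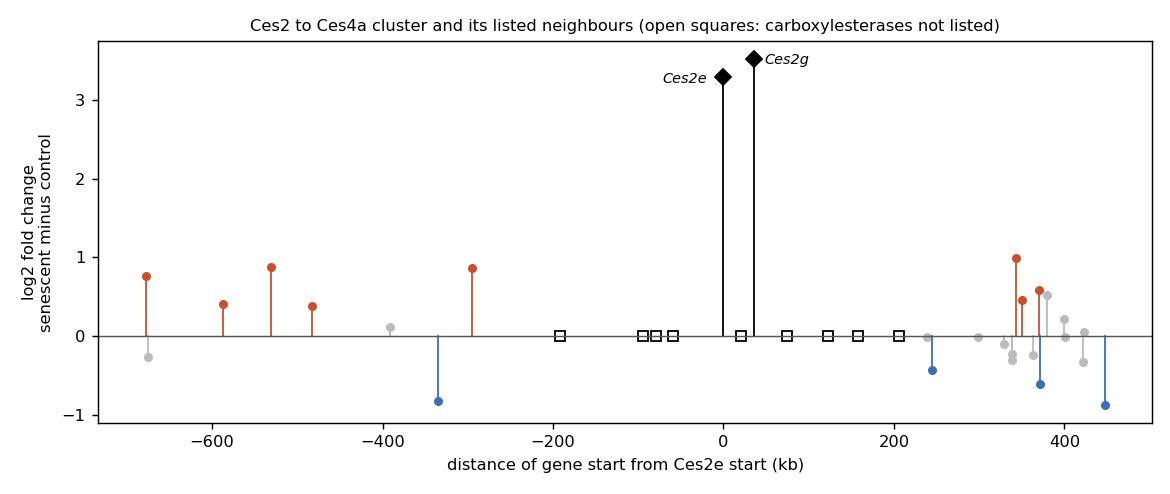
The Ces2 cluster and the tested genes around it, by distance of the gene start from that of Ces2e in kb (x axis), with the log2(CPM + 0.5) difference, senescent minus control (y axis). Diamonds are Ces2e and Ces2g, red and blue points are neighbours called higher and lower, grey points were not called, and open squares on the zero line are carboxylesterases that were not listed and have no value. Ces2e (3.29) and Ces2g (3.53) stand above their neighbours, and the square between them is Ces2f.

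Genes within 500 kb of a member, whose position played no part in choosing the members, were mixed in direction. Of 29 tested neighbours, 10 were called higher and 4 lower (34.5% and 13.8%, against 21.8% and 24.3% of all genes). Their median log2 difference was 0.11 against -0.03 over all genes. Around the Ces2 cluster 8 of 25 were called higher and 4 lower, and around the Ces1 cluster 2 of 4 were called higher. Without senescent replicate 3 the whole list gave 6 higher calls, and the other single omissions gave 7 to 10. Rrad, a small GTPase gene 102.7 kb from Ces2a, was 0.87 higher on the log2 scale (limma adjusted p = 0.0106). It reached 0.5 CPM in no control library. Exoc3l, also called higher, would not have passed the 0.5 CPM limit on its control values alone. Pdp2, 142.6 kb from the nearest member, fell by 0.83 (adjusted p = 0.00534). Next by distance were Gm3830 (195.1 kb, log2 difference -0.01, adjusted p = 0.970), Car7 (199.3 kb, not tested) and Nae1 (199.4 kb, 0.11, adjusted p = 0.395), then Cbfb, 201.1 kb from Ces2g, which fell by 0.43 (adjusted p = 0.00922, 0.0842 with library totals alone). The neighbour with the smallest p among those called higher was Tk2, a mitochondrial thymidine kinase (13.0 ± 0.960 to 22.5 ± 3.26 CPM, log2 difference 0.76, SE 0.13, adjusted p = 0.00316), and among those called lower E2f4, a cell cycle repressor (55.8 ± 2.49 to 36.4 ± 2.16 CPM, -0.61, SE 0.08, adjusted p = 0.00100). The most abundant neighbours were Mmp2, a gelatinase (613 ± 170 to 915 ± 92.7 CPM, log2 difference 0.61, adjusted p = 0.0328), and Dync1li2, a dynein chain (140 ± 9.44 to 183 ± 11.5 CPM, 0.38, adjusted p = 0.00760). The call of Mmp2 was lost without control replicate 1 or 3 or any senescent replicate (adjusted p 0.0678 to 0.0939).

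Carboxylesterases belong to the first phase of drug metabolism, in which drugs are oxidised or hydrolysed before conjugation. Of 18 tested phase I genes other than carboxylesterases, 13 were called higher in senescent FAPs and 0 lower. These shares were 72.2% and 0%, against 21.8% and 24.3% of all genes, and the median log2 difference was 1.25. Cyp1a1, Cyp3a13, Cyp27a1, Fmo1, Fmo2 and Aldh3a1, all called higher, would not have passed the 0.5 CPM limit on their control values alone. For such genes passing favoured higher calls, and the list was chosen with earlier results of these data known. Ephx1, the microsomal epoxide hydrolase, rose from 177 ± 13.9 to 455 ± 31.3 CPM (log2 difference 1.36, SE 0.09, limma adjusted p = 1.31e-04). Its groups were fully apart. Cyp1b1, a cytochrome P450 and the other most abundant gene of the list, was at 299 ± 46.3 and 353 ± 28.1 CPM (log2 difference 0.25, adjusted p = 0.148), and its p passed the threshold with the replicate number as a block (0.0413) and with library totals alone (0.0242). Fmo2, a flavin monooxygenase (0.302 ± 0.249 to 5.08 ± 0.642 CPM, 2.83, SE 0.23, adjusted p = 2.33e-04), and Aldh1a1, a retinaldehyde dehydrogenase (3.90 ± 1.79 to 28.8 ± 9.49 CPM, 2.75, SE 0.32, adjusted p = 6.99e-04), were picked after their values were seen.

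Phase II enzymes, which conjugate the products to glutathione, glucuronic acid or sulfate, gave 12 calls higher and 0 lower of 19 tested. These shares were 63.2% and 0%, against 21.8% and 24.3% of all genes, and the median log2 difference was 0.73. Gsta3 and Sult1a1, both called higher, reached 0.5 CPM in no control library. Mgst1, a membrane-bound glutathione transferase, rose from 27.6 ± 1.81 to 81.4 ± 3.59 CPM (log2 difference 1.54, SE 0.08, adjusted p = 6.97e-05). Gstm2, a soluble glutathione transferase, was at 110 ± 18.9 and 118 ± 1.52 CPM (log2 difference 0.11, adjusted p = 0.490). Ugt1a7c, a glucuronosyltransferase that shares exons with other Ugt1a genes and is uncertain for that reason, rose from 74.2 ± 16.1 to 121 ± 13.0 CPM (0.71, SE 0.16, adjusted p = 0.00951). Ugt1a1 and Ugt1a6a, which share those exons, were called higher too (log2 difference 0.73 and 0.65). Each is counted as a call of its own in the shares given here, although these calls are not independent. Among genes with a mean of at least 5 CPM, 6 of 9 phase I and 8 of 13 phase II genes were called higher and 0 lower, against 18.3% higher and 29.4% lower over all such genes. That mean was taken over all 6 libraries, so it too favoured genes high in the senescent group. Aldh1a1 and Cyp2d22, both called higher, had control means of 3.90 and 4.40 CPM and would not have reached it on control values alone. Leaving out single libraries gave 9 to 13 higher calls for phase I and 11 to 13 for phase II.

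**Figure D4:**
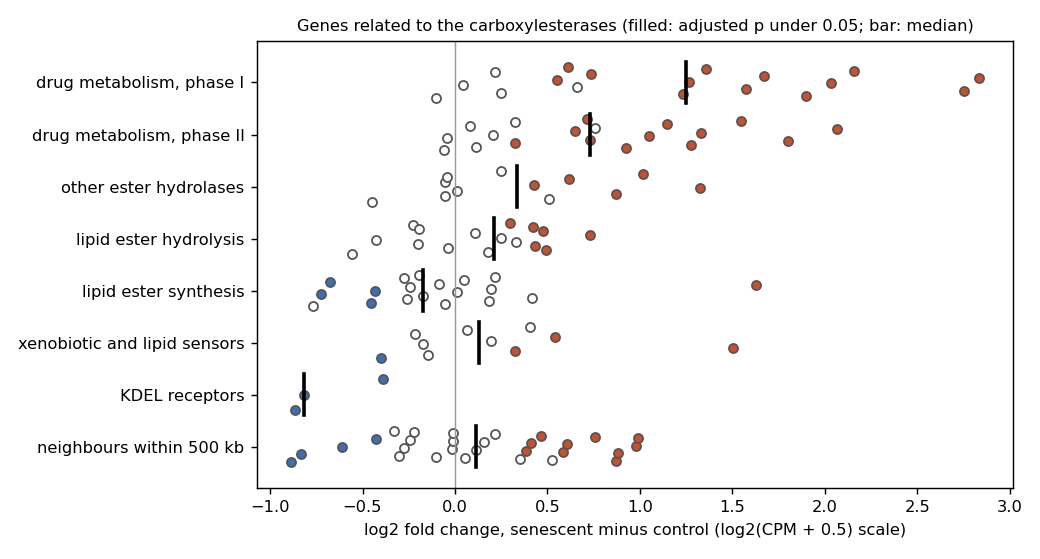
Log2(CPM + 0.5) difference between senescent and control means for each tested gene of the related lists, with 1 point per gene, filled where the adjusted p was under 0.05 (red higher, blue lower), and a bar at each list's median. The phase I and phase II medians (1.25 and 0.73) lie above the median of all genes (-0.03), and the 3 KDEL receptors lie below it.

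Ester hydrolases outside the family gave 5 higher and 0 lower calls of 12 tested (41.7% and 0%, against 21.8% and 24.3% of all genes). Their median log2 difference was 0.34, and Bche, called higher, reached 0.5 CPM in no control library. With the replicate block they gave 6 and 1, the lower call being Lypla2, an acyl-protein thioesterase (log2 difference -0.45, adjusted p = 0.0182, 0.0549 without the block), and without senescent replicate 2 they gave 2 higher. Esd, which hydrolyses S-formylglutathione, rose from 239 ± 44.1 to 484 ± 70.0 CPM (log2 difference 1.02, SE 0.15, adjusted p = 0.00175). Pon2, a lactonase of the paraoxonase family, was at 36.9 ± 3.68 and 57.5 ± 11.1 CPM (0.62, SE 0.15, adjusted p = 0.0125, 0.0533 without senescent replicate 2).

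Lipid ester hydrolysis, the reaction that several Ces1 enzymes carry out, gave 6 higher and 0 lower calls of 16 tested, with a median log2 difference of 0.21. These shares were 37.5% and 0%, against 21.8% and 24.3% of all genes. Lipe, called higher, would not have passed the 0.5 CPM limit on its control values alone. The count of higher calls fell to between 1 and 3 when any single library was left out. With the replicate block there was 1 lower call, G0s2, an inhibitor of the lipase Pnpla2 (log2 difference -0.56, adjusted p = 0.0211, 0.0869 without the block). Abhd5, the activator of the same lipase, rose from 44.5 ± 0.894 to 62.1 ± 3.96 CPM (log2 difference 0.47, SE 0.08, adjusted p = 0.00222). Mgll, monoacylglycerol lipase, varied more within the groups than between them, with 13.3, 438 and 187 CPM in control and 25.2, 253 and 217 CPM in senescent replicates 1, 2 and 3 (adjusted p = 0.953). Lpl, lipoprotein lipase, was at 108 ± 46.5 and 86.3 ± 8.49 CPM (adjusted p = 0.557, 0.0116 without control replicate 2).

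Enzymes of lipid ester synthesis gave 1 higher and 4 lower calls of 19 tested, but 4 higher and 3 lower with library totals alone. In the main fit the shares were 5.26% and 21.1%, against 21.8% and 24.3% of all genes. The median log2 difference was -0.17. Lpin1, a phosphatidate phosphatase, rose from 15.5 ± 4.82 to 47.2 ± 3.02 CPM (log2 difference 1.63, SE 0.22, adjusted p = 0.00115). Acsl3, an acyl-CoA synthetase, fell from 60.3 ± 1.01 to 36.4 ± 3.07 CPM (-0.72, SE 0.08, adjusted p = 6.24e-04). Soat1, which esterifies cholesterol, fell from 277 ± 48.5 to 172 ± 18.1 CPM (-0.68, SE 0.14, adjusted p = 0.00678). Acsl4, a related synthetase, was at 166 ± 18.2 and 156 ± 9.35 CPM (-0.09, adjusted p = 0.489).

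Among nuclear receptors and other sensors known to regulate drug and lipid metabolism, 3 of 10 tested genes were called higher and 1 lower. Over all genes, 21.8% were called higher and 24.3% lower. The median log2 difference of the list was 0.13. Nr1i2 and Nr1i3, the PXR and CAR receptors that regulate carboxylesterase genes in liver, were not listed, and nor was Rxrg. Nfe2l2, which encodes NRF2, rose from 140 ± 6.47 to 203 ± 9.09 CPM (log2 difference 0.54, SE 0.07, adjusted p = 0.00108). Pparg, the adipogenic receptor, was at 6.62 ± 0.576 and 4.88 ± 0.284 CPM (-0.40, SE 0.13, adjusted p = 0.0372), a call that was lost without control replicate 2 or 3 or any senescent replicate (0.0686 to 0.116) and with library totals alone (0.234). Without control replicate 2 the list gave 4 higher and 2 lower calls. Ahr, the dioxin receptor, was at 93.5 ± 26.2 and 78.5 ± 11.1 CPM (-0.22, adjusted p = 0.432, 0.0107 without control replicate 2). Hnf4a, a liver and gut regulator, had 0 reads in every control library and 15, 29 and 18 reads in senescent replicates 1, 2 and 3 (0.298, 0.485 and 0.405 CPM), below the limit for fitting.

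Many carboxylesterases are held in the endoplasmic reticulum by a C-terminal signal that the KDEL receptors recognise. All 3 receptors were called lower, as 24.3% of all genes were. Kdelr3 fell from 212 ± 9.98 to 116 ± 10.2 CPM (log2 difference -0.86, SE 0.09, adjusted p = 3.77e-04). Kdelr2 fell from 318 ± 19.5 to 181 ± 18.6 CPM (-0.82, SE 0.10, adjusted p = 6.56e-04) and Kdelr1 from 210 ± 12.6 to 160 ± 11.3 CPM (-0.39, SE 0.08, adjusted p = 0.00716). With library totals alone Kdelr1 was not called (0.0981).

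The 5 genes whose values followed those of Ces2e most closely over the 6 libraries were I830012O16Rik (Pearson r = 0.999), Rtp4 (0.999), Adar (0.998), 5430435G22Rik (0.998) and E230015B07Rik (0.998), computed on log2(CPM + 0.5). With 2 well separated groups of 3 cultures, r mainly reflects the step between the groups, and 122 of 14773 genes had an r over 0.99. Their levels differed widely. Mean levels in control and senescent FAPs were 0.385 and 8.31 CPM for I830012O16Rik, 0.768 and 9.66 CPM for Rtp4, and 28.1 and 56.7 CPM for Adar. 5430435G22Rik was at 16.7 and 45.1 CPM, and E230015B07Rik at 0.186 and 1.03 CPM.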

How the data were processed

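RNA of cultured FAPs was measured in 6 libraries, 3 control and 3 senescent, grouped by their labels. The authors prepared stranded mRNA libraries, counted reads per gene, scaled the counts with edgeR (3.10 in R 3.6.0, build mm10, per the submitters' processing notes) and deposited a signal in scaled CPM for each listed gene in each library. The aligner, counter, annotation and filter are not given in the sources used here. The deposited signal was in whole multiples of 1 read for 100% of values (tolerance 1e-06), and the scaling factors, 0.917 to 0.940 in control and 1.07 to 1.09 in senescent libraries, equalled edgeR's TMM factors on the recovered reads. Of 16895 lines, 1 carried no gene name (0.0041% to 0.0070% of reads) and was left out. No library repeated another (chi-square per gene between replicates 14.9 to 145).

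limma 3.58.1 (R 4.3.3, trend, two-sided) was fitted on log2(CPM + 0.5) for genes that reached 0.5 CPM in 3 or more libraries, with Benjamini-Hochberg adjustment over all 14776 genes and calls at an adjusted p under 0.05. The design had assumed plain CPM, and the same test was kept for the scaled values. The method was checked on simulated counts without low-level genes, replicate effects or differences in scaling, so the check does not cover these. Samples with the same replicate number deviated together (correlations 0.537, 0.308 and 0.207), so the numbers were taken to pair the cultures. Samples with different numbers gave -0.357 to 0.153, the highest being control replicate 2 with senescent replicate 3, so the pairing of replicate 3 is the least clear. The main fit left this pairing out, and the replicate block was fitted as an alternative.

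Alternatives were pseudocounts of 0.1 and 1, no filter or 2 CPM, median-of-ratios scaling, library totals, leaving out each library, and edgeR 4.0.16 and DESeq2 1.42.0 on recovered reads. The restriction to genes with a mean of at least 5 CPM was added after seeing the data. Members and lists were chosen with earlier results of these data known. In each list the called gene with the smallest p in each direction and the 2 genes with the highest mean were named, and the 6 nearest neighbours, Lypla2, G0s2, Fmo2, Aldh1a1 and Hnf4a were named after their values were seen. Genes named only for low control values or shared exons were also picked after their values were seen. Gene positions were those of GENCODE M21 (GRCm38). Intervals cover counting error only.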

Additional observations from a re-analysis of the deposited data

How the results depend on the processing

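The size of the log2 difference of the members depended on the constant added to their low control levels, while its direction did not. With a pseudocount of 0.1 it was 4.89 for Ces2e, 4.09 for Ces2g and 2.52 for Ces1g, and with 1 it was 2.52, 3.08 and 0.68. On recovered reads it was 5.90, 4.16 and 4.01 with edgeR and 5.98, 4.20 and 4.15 with DESeq2. In the main fit, 41.2% of the 97 tested genes of the related lists (neighbours left out) were called higher and 8.25% lower. Over all genes these shares were 21.8% and 24.3%. With library totals alone, 5056 genes were called higher and 1933 lower, and the related lists gave 52 higher and 5 lower calls in place of 40 and 8. With the replicate block, 3576 genes were called higher and 3947 lower, the related lists gave 45 higher and 11 lower calls in place of 40 and 8, and the members' differences stayed at 3.29, 3.53 and 1.11. Leaving out single libraries gave 2130 to 3405 genes higher, 2416 to 3875 lower, 26 to 39 higher and 6 to 12 lower calls in the related lists, and differences of 3.20 to 3.35 for Ces2e, 3.30 to 3.77 for Ces2g and 1.00 to 1.21 for Ces1g. The lowest counts of higher calls, 2130 genes and 26 in the lists, came without senescent replicate 2. At a filter of 2 CPM Ces1g was not tested and gives no value. Depth limits the control values of Ces2e and Ces1g, which rest on 13 and 6 reads in all.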
